A study of Mus musculus with 3 samples.

Results

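Csf1, Il34, Csf1r, C1qa, C1qb, C1qc, Pf4, Mrc1 and F13a1 were followed through single-cell transcriptomes of developing mouse back skin. They are 9 of the 19165 genes in the deposited matrix. They were taken by name, as the pair of ligands of the colony stimulating factor 1 receptor, the receptor itself and 6 genes commonly used to recognise tissue macrophages. Their levels were then read by developmental stage and by cell class, with the classes set from marker genes that include none of the 9.

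Macrophages take up debris, remodel tissue and defend it, and the tyrosine kinase receptor encoded by Csf1r is needed for the survival of most of them. Colony stimulating factor 1 (Csf1) and interleukin 34 (Il34) are unrelated in sequence but bind the same receptor, and in adult epidermis interleukin 34 from keratinocytes is known to maintain Langerhans cells. C1qa, C1qb and C1qc encode the chains of the complement recognition molecule C1q, Pf4 encodes a chemokine best known from platelets, Mrc1 encodes the mannose receptor CD206, and F13a1 encodes the A subunit of coagulation factor XIII.

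The skin came from male C57/BL6 mice of the embryonic days E13.5 and E16.5 and of the day of birth (P0). At these stages hair follicles are induced, formed and differentiated. No animal carried an engineered allele or received an agent according to the labels. Tissue of several animals was pooled into 1 droplet library per stage, so the animals cannot be separated and no comparison between stages has a replicate. E13.5 and E16.5 skin was digested with trypsin and P0 skin with collagenase IV, so that stage cannot be told apart from library, pool and, for P0, digestion.

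The table held 5962, 5208 and 5065 cells. Here and below, 3 values given without stages run from E13.5 through E16.5 to P0. Unique molecular identifiers (UMIs, counts of captured transcripts) numbered 53334740, 66239195 and 46599806, and the median cell held 7066.5, 11021 and 6797. Between 32 and 44 cell barcodes were shared by any pair of libraries. Levels are given as UMIs of a gene scaled to a fixed total (CPM) with exact 95% Poisson intervals, and shares of cells with exact 95% binomial intervals. Both cover counting error only and neither covers differences between animals. A difference between stages is called here only when it passes 2-fold after 10 CPM were added to both values, and log2 differences are on that scale. Each library was clustered alone, and a cluster was named from at least 3 markers of a class as, for example, macrophage-like. The macrophage-like cells numbered 242, 149 and 51. No marker list for monocytes or dendritic cells was used, so this class can hold such cells too. All 14 macrophage markers used for naming were detected in them at every stage. Their summed level was 6667, 13374 and 14369 CPM against 97.5, 121 and 123 CPM in the other named cells. The clusters were named from these markers, so this describes the class and does not test it. A sub-cluster of 12 cells at E16.5, led by Cd74, H2-Aa, H2-Ab1 and Cd209a, had none of these markers among its 10 leading genes. Neither did a sub-cluster of 10 cells at E16.5, led by Pf4, C1qc and C1qb. Fewer cells of a type and less RNA per cell cannot be told apart in the levels of a whole library.

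Csf1 lies at chr3:107741048-107760469 on the minus strand and Il34 at chr8:110741829-110805924 on the minus strand (GRCm38, GENCODE vM21). The C1q genes lie side by side on the minus strand of chromosome 4, with C1qb at chr4:136880129-136886187, C1qc at chr4:136889804-136893065 and C1qa at chr4:136895917-136898803, within 18675 bases in all. Pf4 lies at chr5:90772435-90773383 and Mrc1 at chr2:14229392-14332057, both on the plus strand, and F13a1 lies at chr13:36867178-37050244 on the minus strand. Il34 overlaps Gm15894 and Gm15895, and Csf1r overlaps Hmgxb3, and all of these are rows of their own in the matrix.

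Promoter sequence is shown for 4 genes that were high in macrophage-like cells, because the myeloid factor PU.1 (Spi1) is known to bind purine-rich elements with the core GAGGAA in macrophage promoters. The 250 bases before the RefSeq start site (GRCm38.p6) were read 5′ to 3′ on the strand of the gene. Each GAGGAA or its reverse complement is in capitals. RefSeq starts differ from the GENCODE spans above for some genes, and the C1qc and Mrc1 windows reach into those spans. The windows are chr4:136886201-136886450 for C1qb, chr4:136892915-136893164 for C1qc, chr5:90772185-90772434 for Pf4 and chr2:14229164-14229413 for Mrc1.
C1qb: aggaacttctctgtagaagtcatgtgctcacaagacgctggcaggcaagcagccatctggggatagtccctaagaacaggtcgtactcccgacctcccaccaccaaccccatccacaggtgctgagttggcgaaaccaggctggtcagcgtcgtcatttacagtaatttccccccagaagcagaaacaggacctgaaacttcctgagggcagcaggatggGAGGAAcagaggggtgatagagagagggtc
C1qc: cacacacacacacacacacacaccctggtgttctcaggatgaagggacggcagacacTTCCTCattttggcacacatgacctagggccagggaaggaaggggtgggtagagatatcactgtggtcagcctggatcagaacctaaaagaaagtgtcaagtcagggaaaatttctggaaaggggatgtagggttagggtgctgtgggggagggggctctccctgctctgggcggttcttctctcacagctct
Pf4: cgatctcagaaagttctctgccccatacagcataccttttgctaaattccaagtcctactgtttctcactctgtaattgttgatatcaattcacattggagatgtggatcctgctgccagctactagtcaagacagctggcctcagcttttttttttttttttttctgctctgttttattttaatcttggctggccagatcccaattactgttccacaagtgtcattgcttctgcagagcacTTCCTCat
Mrc1: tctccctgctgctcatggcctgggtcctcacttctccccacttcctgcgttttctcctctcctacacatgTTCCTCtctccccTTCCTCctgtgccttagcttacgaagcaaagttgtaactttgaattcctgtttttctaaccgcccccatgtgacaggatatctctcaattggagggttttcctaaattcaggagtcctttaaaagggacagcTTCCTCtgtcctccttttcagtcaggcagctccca

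The C1qb window held 1 match on the strand of the gene, 30 bases before the start. The C1qc and Pf4 windows held 1 match each on the other strand, and the Mrc1 window held 3, all on the other strand. The F13a1 window chr13:37050245-37050494 held 1 match, a second F13a1 window at chr13:37049214-37049463 held 0, and the Csf1 window chr3:107760470-107760719 held 0. For scale, 23.3% of 32851 RefSeq promoter windows of this length hold GAGGAA on either strand, and 93.4% hold the shorter GGAA within it. TGCTGA, the half-site of MAF factors, occurred in the C1qb window and in 16.1% of all windows. A match describes the letters and is not a measured binding site. Spi1 itself was read at 371, 500.4 and 530.1 CPM in macrophage-like cells at the 3 stages.

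The ligand and receptor genes had different courses in the whole libraries. Csf1 was read at 6.47 CPM (345 UMIs), 11.2 CPM (740 UMIs) and 13.3 CPM (619 UMIs). Il34 was read at 0.919 CPM (49 UMIs), 4.02 CPM (266 UMIs) and 17.4 CPM (809 UMIs). Both ligands were thus highest at P0. Csf1r was read at 24.15, 19.3 and 5.69 CPM and was lowest at P0. The 6 other genes were also lowest at P0. C1qb was at 97.05, 77.5 and 38.9 CPM and Mrc1 at 33.8, 26.2 and 3.95 CPM, and C1qa and C1qc were likewise lower at each later stage. Pf4 at 143.7, 161 and 91.8 CPM and F13a1 at 33.4, 39.55 and 7.425 CPM were highest at E16.5. Macrophage-like cells were fewer at P0 than at the earlier stages, and the whole-library values follow both that number and the level within the cells.

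The 9 genes fell into 3 patterns by cell class. The 7 macrophage genes had between 72.7% and 91.5% of their UMIs in macrophage-like cells at every stage. Csf1 had 58.0% of its UMIs in dermal-like cells of E13.5 skin, then 73.8% and 72.2%. Il34 had 48.9% at E16.5 and 51.2% at P0 in pericyte-like cells. Pericytes wrap small vessels, but the naming markers of this class included the smooth muscle genes Acta2 and Myh11. The class can therefore hold smooth muscle cells as well as pericytes. At E13.5 no cluster was pericyte-like, and 42.9% of the 49 Il34 UMIs lay in dermal-like cells.

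**Figure D1:**
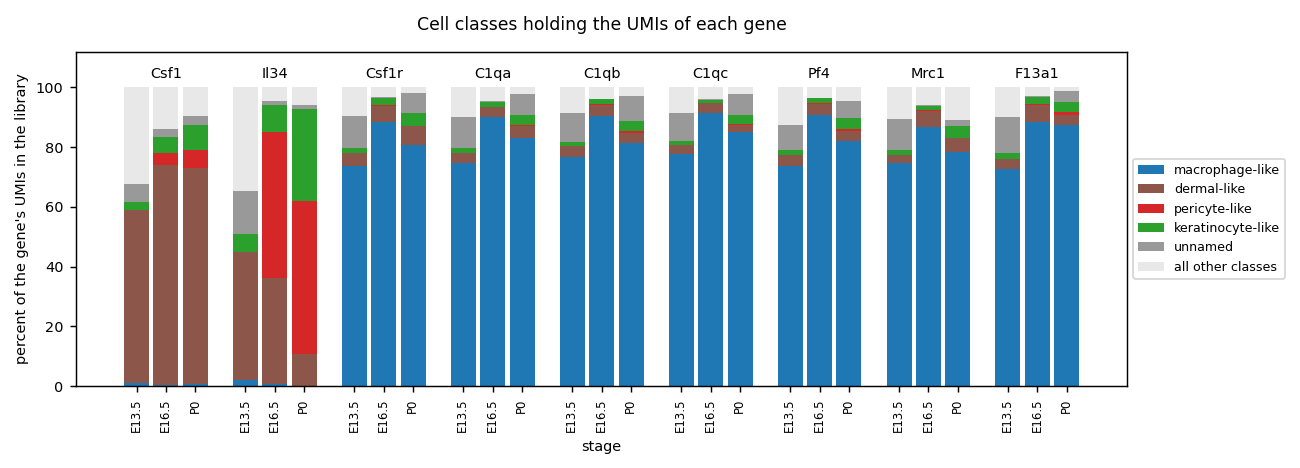
Stacked bars of the percent of each gene's UMIs in a library (y axis) by the cell class that held them (colours), with 1 bar per stage (x axis) for each gene named above the bars. Keratinocyte-like joins epithelial-like, suprabasal-like and follicle epithelium-like cells. Macrophage-like cells fill most of each bar of the 7 macrophage genes, dermal-like cells most of the Csf1 bars, and pericyte-like cells 48.9% and 51.2% of the Il34 bars at E16.5 and P0.

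Csf1, the broadly made ligand, was highest among the classes with at least 50 cells in dermal-like and pericyte-like cells at P0. Dermal-like cells held it at 8.75 CPM (interval 7.58 to 10.1, 2445 cells), 16.3 CPM (14.96 to 17.7, 2908 cells) and 28.1 CPM (25.6 to 30.8, 2441 cells). The 3 intervals do not overlap, and each later stage was higher. The macrophage markers also summed higher in dermal-like cells at each later stage, at 41.3, 50.6 and 139 CPM, and their part was not tested. In pericyte-like cells Csf1 was at 14.4 CPM (9.69 to 20.5, 180 cells) in E16.5 skin, and at 22.5 CPM (15.9 to 30.9, 240 cells) at birth, and these intervals overlap each other and those of dermal-like cells of the same stage at E16.5 and P0. Blood endothelial-like cells held it at 8.24, 12.7 and 9.10 CPM. Epithelial-like cells, keratinocytes whose E13.5 clusters were partly led by genes of the periderm such as Gabrp and Krt8, held 2.61, 3.01 and 1.36 CPM, and condensate-like cells, the dermal cells gathered under hair follicles, held 2.64 and 5.01 CPM (E16.5 and P0). Macrophage-like cells gave 3, 2 and 5 Csf1 UMIs, or 1.36, 1.12 and 12.4 CPM, of which the last has an interval too wide to place it.

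Few single cells held a Csf1 transcript. When every cell was thinned to 3500 UMIs, the share of dermal-like cells with a Csf1 UMI was 2.78% (2.17 to 3.51), 4.99% (4.22 to 5.84) and 8.52% (7.44 to 9.70). Without thinning the shares were 7.44%, 15.6% and 13.9%, at median depths of 8473, 10660 and 6021 UMIs, so the order of E16.5 and P0 turned with depth. Epithelial-like cells, taken as a class with little Csf1, had thinned shares of 1.17%, 0.862% and 0.601%, at median depths of 6435, 13789 and 8953 UMIs before thinning. The dermal-like shares lay above these at E16.5 and P0 with intervals apart, and at E13.5 the intervals overlapped.

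Csf1 was unevenly spread among dermal-like clusters. At P0 the lowest of them held 1.84 CPM (1 UMI, under the 5.51 CPM of 3 counts). The cluster led by Clec3b, Lpl and Ly6a held 95.8 CPM and the cluster led by Mfap5 and Igfbp6 held 78.2 CPM. The first of these also had 5 of 6 adipocyte markers, Lpl among the 6, at least 1 log2 unit above the 25th percentile of clusters, beside all 8 dermal markers. At E16.5 the highest cluster, led by Mfap5, Ly6a and Igfbp6, held 34.2 CPM (18 UMIs) and the lowest 4.02 CPM (7 UMIs). The interval of the highest (20.25 to 54.01) overlapped that of other clusters, such as 1 at 33.25 CPM led by C1qtnf3 and Aspn. Igfbp6 encodes a binding protein of insulin-like growth factors and Mfap5 a microfibril protein, and Lpl encodes lipoprotein lipase. At E13.5 the highest dermal-like cluster, led by Osr2, Cemip and Klf4, held 17.7 CPM.

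**Figure D2:**
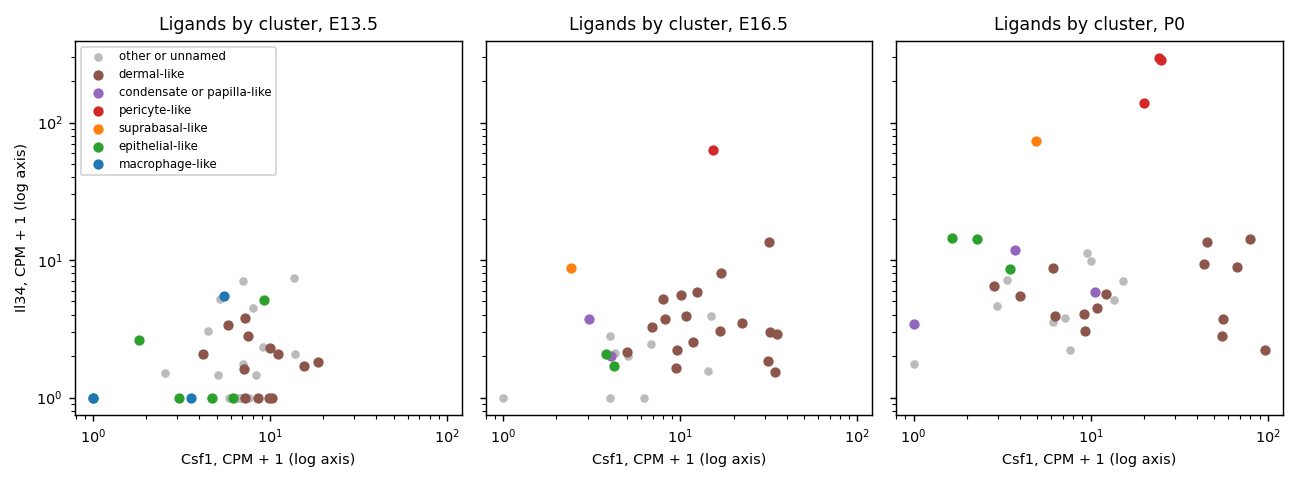
Each point is a cluster of at least 30 cells, or a macrophage-like sub-cluster of that size, placed by Csf1 (x axis) and Il34 (y axis), both as CPM after adding 1 on log axes, with 1 panel per stage and colour for the class. Dermal-like clusters reach farthest along Csf1, up to 95.8 CPM at P0, and the 3 pericyte-like clusters of P0 stand highest for Il34, at 138 to 295 CPM.

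Il34 was concentrated in pericyte-like cells, followed by suprabasal-like cells. Pericyte-like cells held it at 62.2 CPM (52.0 to 73.9) in E16.5 skin, and at 245 CPM (222 to 270.1) at birth. Suprabasal-like cells, the differentiating keratinocytes above the basal layer, held 7.80 CPM (3.90 to 13.96, 86 cells), then 72.1 CPM (60.2 to 85.7, 122 cells). The E16.5 cluster of this class also carried periderm genes, with Krt6a and Krt4 among its leading genes, and the P0 cluster did not have them there. In both classes P0 was higher and the intervals did not overlap. Epithelial-like cells held 0.782, 0.891 and 11.8 CPM (9.46 to 14.6 at P0), and dermal-like cells held 0.919, 2.81 and 5.47 CPM. At P0 the order of these classes was pericyte-like, suprabasal-like, epithelial-like and dermal-like, and no neighbouring intervals in that order overlapped. Schwann-like cells (10.2 CPM, 6 UMIs) and blood endothelial-like cells (8.77 CPM) stood next to epithelial-like cells with overlapping intervals. Keratinocyte classes together, with follicle epithelium-like cells, held 6.12%, 9.02% and 30.9% of all Il34 UMIs.

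The share of cells with an Il34 UMI followed the same order. In thinned cells it was 18.9% of pericyte-like cells at E16.5 and 50% (43.5 to 56.5) at P0, and 3.49% (0.725 to 9.86) and 24.6% (17.2 to 33.2) of suprabasal-like cells. The unthinned shares were 44.4% and 73.8%, and 10.5% and 56.6%. Macrophage-like cells, which bind this ligand and are not known to make it, gave 1, 2 and 0 Il34 UMIs, at median depths of 6704, 11403 and 7155 UMIs. Pericyte-like cells had median depths of 9722 UMIs at E16.5 and 6123 UMIs at P0. At P0 that was 0 of 51 cells, which allows a share of cells with a UMI of up to 5.88% (3 counts) and does not limit the share that expresses the gene. The highest thinned cell held 6 Il34 UMIs and was pericyte-like at P0.

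All 3 pericyte-like clusters at P0 held Il34. It was read at 295 CPM (40 cells) in the cluster led by Acta2, Myh11 and Ccl11, at 285 CPM (133 cells) in the cluster led by Higd1b and Kcnj8, and at 138 CPM (67 cells) in the cluster led by Rgs5, Acta2 and Nrgn. Acta2 and Myh11 encode contractile proteins of smooth muscle, and Rgs5, Higd1b and Kcnj8 are pericyte genes. The interval of the last cluster (106 to 175) lay below those of the others, which overlapped each other. Of the 240 pericyte-like cells at P0, before thinning, 152 held Il34 alone, 7 Csf1 alone and 25 both. Of the dermal-like cells, 1, 17 and 17 held both ligands at E13.5, E16.5 and P0.

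**Figure D3:**
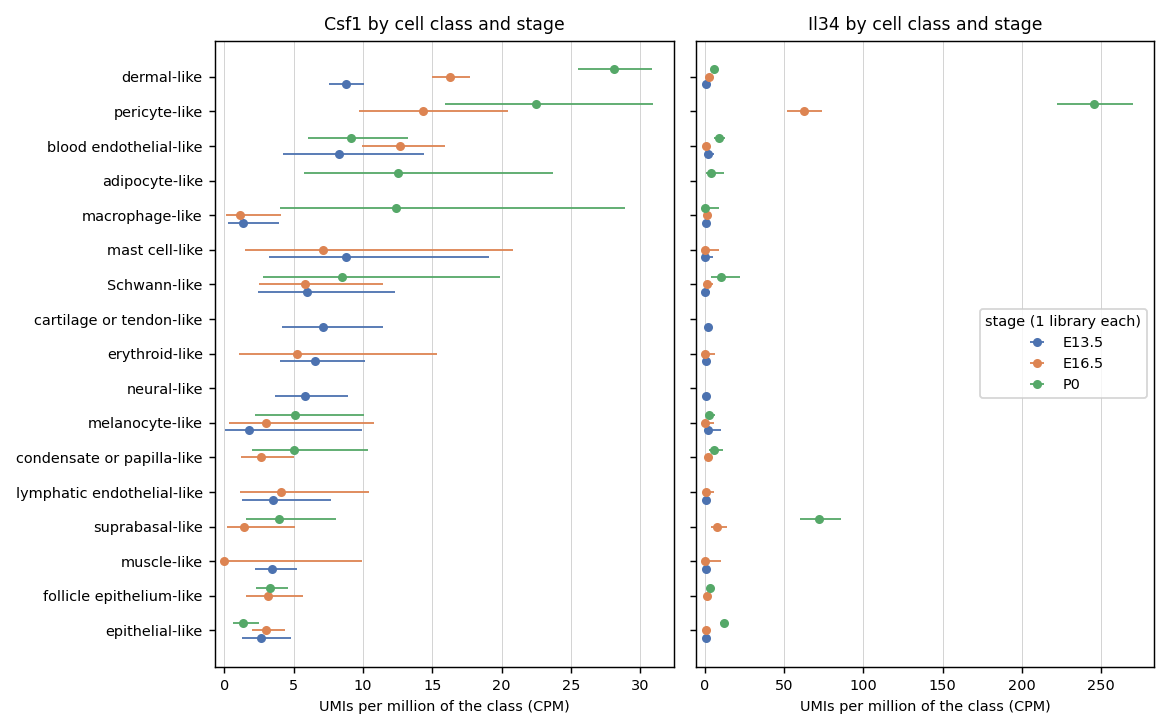
Csf1 (left) and Il34 (right) by cell class, as CPM on linear x axes of different range, for classes of at least 30 cells in a stage, with colour for stage and exact 95% Poisson intervals as bars. Dermal-like Csf1 steps up at each stage from 8.75 to 28.1 CPM, and Il34 stands highest in pericyte-like cells at 62.2 and 245 CPM.

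Stage differences were read without clusters led by genes of another class, which left out 22.9%, 39.1% and 13.2% of dermal-like cells. Clusters with no marker of their own class among their 10 leading genes could still be kept. Of the ligands, Csf1 and Il34 had at least 50 UMIs in this dermal-like comparison and neither passed 2-fold, where 3.88% of all genes did between E13.5 and E16.5 and 5.22% between E16.5 and P0. The log2 differences of Csf1 were 0.47 (9.04 to 16.3 CPM) and 0.56 (16.3 to 28.8 CPM), with the intervals apart each time. Those of Il34 were 0.20 and 0.31. Between E16.5 and P0, Il34 passed 2-fold in pericyte-like cells with a log2 difference of 1.82, from 130 to 414 UMIs, where 7.98% of all genes passed and 4.01% passed upward. Csf1 did not pass there, at 0.42 with overlapping intervals, and at -0.036 when cells were thinned.

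In suprabasal-like cells Il34 passed 2-fold between E16.5 and P0 with a log2 difference of 2.205 (11 to 129 UMIs), where 13.4% of all genes passed and 3.28% upward. In epithelial-like cells the log2 difference of Il34 was 1.002, and 0.93 when cells were thinned, where 5.67% of all genes passed and 3.29% upward. It was only just past 2-fold on this scale because the added 10 CPM outweighs the E16.5 level. The levels themselves were 0.891 CPM (8 UMIs) and 11.8 CPM (87 UMIs), with intervals apart. From E13.5 to E16.5 neither ligand reached 50 UMIs in epithelial-like cells (9.02% of all genes passed), and neither did in follicle epithelium-like cells from E16.5 to P0 (5.09% passed). The summed level of the dissociation-response list, immediate early and heat-shock genes, was also higher at P0 than at E16.5 in these classes. It was 1996 and 4693 CPM in pericyte-like cells, 1118 and 7245 CPM in suprabasal-like cells, 1198 and 4850 CPM in epithelial-like cells, and 363, 1533 and 3430 CPM over all 3 stages in dermal-like cells. The macrophage markers summed to 41.3, 50.6 and 139 CPM in dermal-like cells, and to 401 and 616 CPM in suprabasal-like cells at E16.5 and P0, against 63.2 and 56.9 CPM in pericyte-like cells. The part of both lists in these differences was not tested.

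The receptor gene Csf1r had 73.6%, 88.4% and 80.8% of its UMIs in macrophage-like cells, with unnamed cells at 40.1 CPM at E13.5. In macrophage-like cells it was at 429 CPM (402 to 458, 948 UMIs), 634 CPM (597 to 672, 1131 UMIs) and 530.1 CPM (461 to 606, 214 UMIs). E16.5 was above E13.5 with the intervals apart, and P0 overlapped E16.5. Among cells with at least 2500 genes the P0 value was 256 CPM and the E13.5 value 532 CPM. The log2 differences were 0.55 and -0.25, neither past 2-fold. In thinned cells 62.0%, 79.1% and 72.5% of macrophage-like cells had a Csf1r UMI, and the median cell held 1, 2 and 2. The next named class was mast cell-like cells, at 21.9 CPM at E13.5 and 16.6 CPM at E16.5. These values rest on a Csf1r UMI in 11 of 90 and 3 of 50 cells. Dermal-like cells held 2.54, 2.06 and 1.07 CPM.

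The complement genes were higher in macrophage-like cells at each later stage. C1qa was at 1046, 1435 and 2244 CPM, C1qb at 1797, 2597 and 3656 CPM, and C1qc at 1500, 2154 and 3123 CPM. The intervals of each gene were apart at every step, with the widest at P0 from 3472 to 3847 CPM for C1qb. Per step the log2 differences lay between 0.45 and 0.64 and none passed 2-fold. At the same time the share of thinned cells with a C1qb UMI was 83.9%, 72.3% and 72.5%. Outside the sub-clusters led by Cd74, Plac8 or Ccr2, described further on, it was 95.2%, 98.9% and 100%.

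The chains kept nearly fixed proportions. C1qa gave 24.1%, 23.2% and 24.9% of the C1q UMIs of macrophage-like cells, C1qb 41.4%, 42.0% and 40.5%, and C1qc 34.5%, 34.8% and 34.6%. These proportions compare stages and not amounts of protein, since 3′ capture differs between genes. In thinned macrophage-like cells all 3 genes were seen together in 64.5%, 62.2% and 68.6% of cells and none of them in 11.2%, 26.4% and 27.5%. In the other named cells the proportions were within overlapping intervals of these, at 26.6% C1qa and 31.9% C1qc at E13.5, and at least 5 C1q UMIs were found in 74, 4 and 8 of them against 191, 105 and 36 macrophage-like cells.

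**Figure D4:**
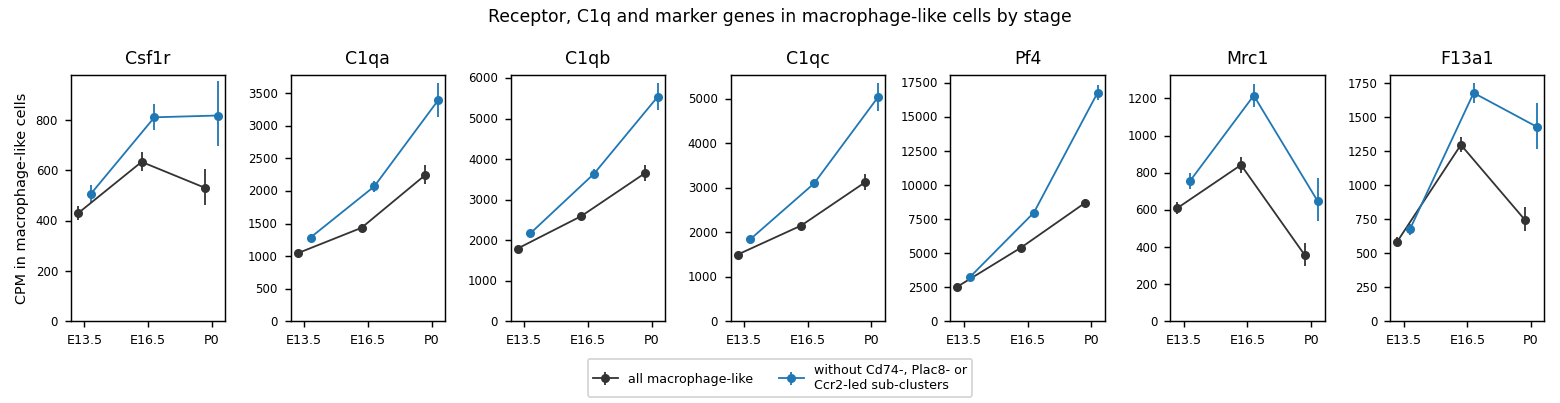
The 7 macrophage genes in macrophage-like cells, as CPM on linear y axes that start at 0 and differ between panels, against stage, with exact 95% Poisson intervals as bars. Black points are all macrophage-like cells, blue points those without the sub-clusters led by Cd74, Plac8 or Ccr2, and lines join the stages for legibility. In both, the C1q genes and Pf4 stand higher at each later stage, while Mrc1 and F13a1 are highest at E16.5.

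Pf4 and F13a1 passed 2-fold upward from E13.5 to E16.5, and they were the 2 of the 7 macrophage genes to do so, where 4.97% of all genes passed and 2.50% upward. Pf4 was at 2554 CPM (2488 to 2621), 5423 CPM (5316 to 5533) and 8692 CPM (8407 to 8984), with log2 differences of 1.08 and 0.68. F13a1 was at 585.5 CPM (554 to 618), 1297 CPM (1244 to 1351) and 748 CPM (666 to 837), with differences of 1.13 and -0.79. Pf4 was thus highest at P0, while F13a1 was highest at E16.5. When only sub-clusters with a macrophage marker score of at least 4 were used, the first differences were 0.89 and 0.94, short of 2-fold.

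Mrc1 was the 1 of the 7 past 2-fold between E16.5 and P0, downward, where 11.4% of all genes passed, 9.16% downward and 2.21% upward. It was at 609.5 CPM (577 to 643), 842 CPM (800 to 885) and 357 CPM (301 to 420.0), with log2 differences of 0.46 and -1.22. The P0 value rests on 144 UMIs. Without the sub-clusters led by Cd74, Plac8 or Ccr2, described further on, Mrc1 was at 1215 and 648 CPM (E16.5 and P0), short of 2-fold. Over all genes tested the median difference was -0.03 from E13.5 to E16.5 and -0.20 from E16.5 to P0, so the downward values at P0 stand against a shifted middle.

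Macrophage-like cells were not uniform. Sub-clusters with Cd74, Plac8 or Ccr2 among their 10 leading genes held 56 of 242, 56 of 149 and 25 of 51 cells. One of them, of 14 cells at E13.5, was led by Ly6d and Trbc2. With no list for monocytes or dendritic cells, the name macrophage-like does not set these sub-clusters apart from such cells. Levels given for all macrophage-like cells include them. This split was chosen after the clusters were seen and by these genes, so the Cd74 levels describe the split and do not test it. Cd74 encodes the invariant chain of antigen presentation, and Plac8 and Ccr2 are genes of monocytes. In them Cd74 was at 722, 6041 and 28898 CPM, against 13.2, 96.7 and 509 CPM in the other macrophage-like cells. Lyve1, a hyaluronan receptor of resident macrophages, was at 20.5, 6.96 and 0 CPM against 753, 761 and 778 CPM.

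The 7 genes were all lower in the sub-clusters led by these genes, by very unequal amounts. Csf1r was at 192, 261 and 246 CPM there and at 506, 811 and 818 CPM in the other macrophage-like cells. Pf4 was at 324, 26.1 and 699 CPM there and at 3272, 7988 and 16794 CPM in the others. Mrc1 was at 156, 55.7 and 68.9 CPM against 755, 1215 and 648 CPM, and C1qb at 631, 395 and 1796 CPM against 2172, 3643 and 5542 CPM. F13a1 was at 303, 494 and 78.7 CPM against 676, 1678 and 1427 CPM.

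Without these sub-clusters some stage differences moved across the 2-fold size. From E16.5 to P0, Pf4 rose past it with a log2 difference of 1.07, Mrc1 was no longer past it at -0.90, and Csf1r turned from -0.25 to 0.01. F13a1 was at 1.30 from E13.5 to E16.5 and -0.23 from E16.5 to P0. At P0 the led sub-clusters differed from each other. One of 14 cells held C1qb at 47.5 CPM and Cd74 at 40738 CPM, and one of 11 cells held C1qb at 3678 CPM and Pf4 at 1441 CPM.

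**Figure D5:**
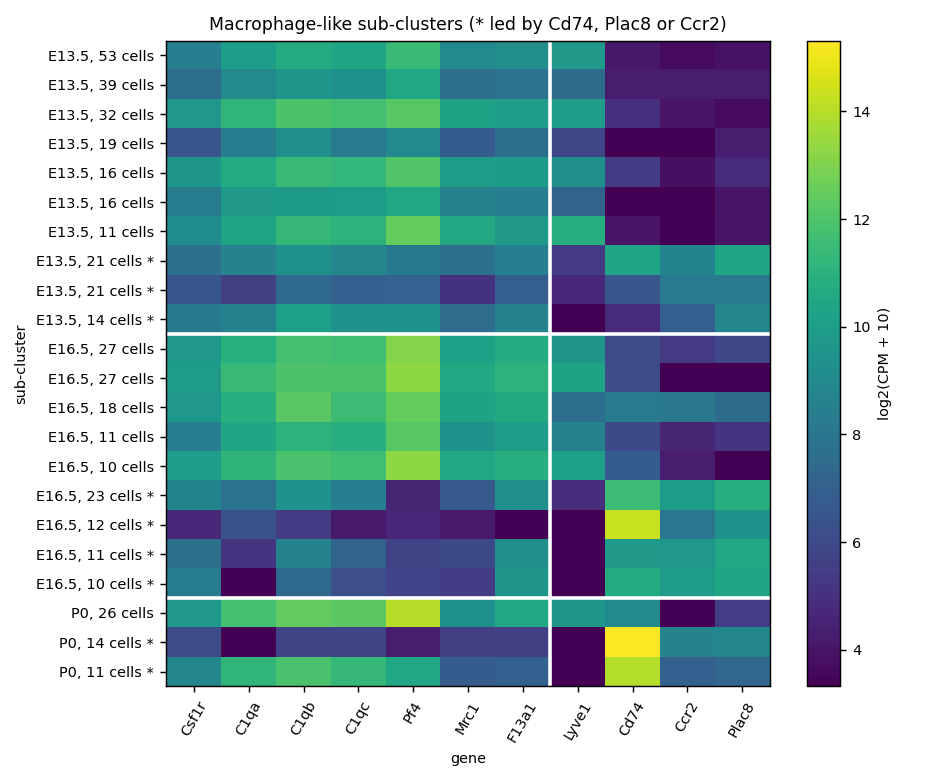
Heat map of log2(CPM + 10) (colour scale) of the 7 macrophage genes and of Lyve1, Cd74, Ccr2 and Plac8 (columns) in each macrophage-like sub-cluster (rows, with stage and number of cells), where a star marks sub-clusters led by Cd74, Plac8 or Ccr2. White lines part the stages and set the last 4 genes aside. The starred rows of E16.5 are dark for Pf4, at 26.1 CPM pooled against 7988 CPM in the others.

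Outside macrophage-like cells, Mrc1 and Pf4 were also read in other classes. Mrc1 was at 37.1 CPM (28.5 to 47.5), 41.9 CPM (30.1 to 56.9) and 51.7 CPM (26.7 to 90.2) in lymphatic endothelial-like cells, which are known to carry the mannose receptor. At E16.5 these 44 cells gave 41 Mrc1 UMIs, with a UMI in 17 cells, but 20 C1q UMIs, whereas macrophage-like cells gave 1502 and 11038. At E13.5 the same class gave 63 Mrc1 and 216 C1q UMIs, where macrophage-like cells gave 1346 and 9591, and it also held Pf4 at 62.4 CPM and C1qb at 47.7 CPM. Whether the Mrc1 UMIs came from these cells themselves was not tested.

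Pf4 was at 4955 CPM (4281 to 5706) in 7 megakaryocyte or platelet-like cells at E13.5, the source for which the gene is named. All 193 Pf4 UMIs there came with 0 UMIs of Csf1r, C1qb and Mrc1, which allows up to 77.03 CPM (3 counts), and with 6 F13a1 UMIs (154 CPM). Mast cell-like cells at E13.5 held all of the macrophage genes at low levels, with C1qb at 102 CPM and Mrc1 at 45.3 CPM. At E16.5 they held C1qb at 59.4 CPM and Mrc1 at 4.75 CPM (2 UMIs). At least 5 C1q UMIs were found in 16 of 90 mast cell-like cells at E13.5 and in 1 of 50 at E16.5. A mast cell-like sub-cluster of 23 cells at E13.5 also had 13 of the 14 macrophage markers raised. Whether these UMIs came from mast cells themselves was not tested.

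Blood endothelial-like cells held the macrophage genes at low levels that differed by stage. C1qb was at 4.80, 21.98 and 3.37 CPM there and Pf4 at 37.7, 46.1 and 9.78 CPM. From E13.5 to E16.5, C1qa (log2 difference 1.16) and C1qb (1.11) passed 2-fold upward, 2 of 9 genes, of which 7 had at least 50 UMIs, against 3.76% of all genes. From E16.5 to P0, C1qa (-1.12), C1qb (-1.26), C1qc (-1.33) and Pf4 (-1.50) passed downward, 4 of 9 genes, of which 7 had at least 50 UMIs, against 5.49%. At E16.5 the values rest on few cells, with the 50 Mrc1 UMIs in 9 of 307 cells and at least 5 C1q UMIs in 2 cells, and doublets were kept. At E16.5 the C1q UMIs of this class were 29.4% C1qa (24.6 to 34.7), where macrophage-like cells had 23.2% (22.4 to 24.0). These intervals take each UMI as independent, while the 96 C1qa UMIs of this class lay in 14 of 307 cells. They therefore do not place the difference between the shares. The C1q UMIs of this class stood at 57.3 CPM, beside 6186 CPM in macrophage-like cells. Whether these UMIs came from the cells themselves was not tested.

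The genes most like each ligand and the receptor were sought by Pearson correlation of log2 CPM over 33 class-by-stage groups of at least 50 cells, among 14416 genes. The groups of a stage share a library and its depth, so the values are descriptions. For Csf1 they were Gm9780 (r = 0.77), Cd81 (0.76), Ecm2 (0.75), Plac9b (0.74) and Tfpi2 (0.74). For Il34 they were Higd1b (0.88), C1s1 (0.86), Cyp4b1 (0.86), Atp10a (0.86) and Myh11 (0.86), of which Myh11 was also a naming marker of pericytes. For Csf1r they were Aif1, Ms4a6c, Ms4a6b, F13a1 and Adgre1 (each 0.99), of which Aif1 and Adgre1 were also naming markers of macrophages. Csf1 and Il34 were correlated at 0.38 with each other and at -0.17 and -0.25 with Csf1r, while the 7 macrophage genes lay between 0.965 and 0.997 pairwise.

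The genes around the receptor were read in macrophage-like cells in companion lists chosen with earlier results known. Their counts stand beside 2.50% of all genes past 2-fold upward from E13.5 to E16.5 in these cells, and beside 2.21% upward and 9.16% downward from E16.5 to P0. Of 14 receptor signalling and myeloid factor genes, 13 had enough UMIs from E13.5 to E16.5 and 2 passed 2-fold upward, Cebpb (log2 difference 1.32) and Runx1 (1.21), both transcription factors. From E16.5 to P0 2 of 13 passed downward, Cebpb (-2.13) and Maf (-1.06). Spi1 and Maf were the highest of the list on average. Of other ligands and receptors, 8 were measured and Ccl12 (1.13) and Ccr2 (1.70), a monocyte chemokine and chemokine receptor, passed upward. Ccr2 was the 1 of 7 to pass to P0, downward (-1.02), and Tgfb1 and Ccl2 were the highest.

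Of the complement list, 6 genes were measured from E13.5 to E16.5. C3 (1.77) and Cfb (1.40) passed upward, and C3 (-1.02) passed downward to P0. The receptors C3ar1 and C5ar1 were the highest of that list. Of 11 resident and scavenger genes measured, Cd163 (2.53), Cbr2 (1.83), Clec10a (1.44) and Msr1 (1.10) passed upward from E13.5 to E16.5. To P0, of 9 measured, Folr2 (1.12), Cbr2 (2.15) and Clec10a (1.20) passed upward and Stab1 (-1.20) downward, with Lyve1 and Gas6 the highest on average.

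All 7 measured genes of the antigen presentation and monocyte list passed upward from E13.5 to E16.5, where 2.50% of all genes did. Cd74 was at 186, 2011 and 14800 CPM, and H2-Aa, a class II chain, had a log2 difference of 3.66. Ly6c2 (2.84) and Plac8 (1.06) passed, as did H2-Ab1 and H2-Eb1. To P0, of 6 measured, H2-Aa, H2-Ab1, H2-Eb1 and Cd74 passed upward again, and Ly6c2 and Plac8 passed downward. Without the sub-clusters led by Cd74, Plac8 or Ccr2, Cd74 was at 13.2, 96.7 and 509 CPM and Plac8 at 7.18, 46.3 and 34.9 CPM. The removed sub-clusters were chosen by these genes, so the remaining levels describe the split and do not test the stage differences. At E16.5 the 56 remaining Plac8 UMIs lay in 9 of 93 cells.

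Of the 5 measured dissociation-response genes, Fos, Jun, Junb and Egr1 passed upward from E13.5 to E16.5, and of 7 measured to P0, Atf3 (2.19) and Hspa1a (5.14) passed upward, with Fos and Jun the highest. The list summed to 958, 2892 and 3171 CPM in macrophage-like cells. Erythroid genes, the markers of red cells, summed to 9719, 3710 and 364 CPM in them and to 17329, 4851 and 1651 CPM in the other named cells. No gene of the paralog list reached 50 UMIs there. The part of these lists in the stage differences was not tested.

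Other genes of the pathway stood in other classes. Ptprz1, a further receptor of interleukin 34, was at 141, 212 and 71.5 CPM in Schwann-like cells. Sdc1, which encodes a proteoglycan that binds it, was at 549.5 CPM in condensate-like cells of E16.5 skin, and at 296 CPM at birth. The complement protease gene C1s1 was at 34.5 and 139 CPM (E16.5 and P0) in pericyte-like cells, and its inhibitor gene Serping1 at 28.3 and 207 CPM there. Both were thus higher at P0 in pericyte-like cells, but this was not particular to them. Over all named cells that were not macrophage-like, C1s1 was at 2.65 and 11.6 CPM and Serping1 at 17.5 and 50.5 CPM.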

How the data were processed

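Back skin of 3 stages was profiled by 10x 3′ single-cell RNA-seq, with 1 pooled library per stage. The authors aligned reads to mm10 with Cell Ranger 2.2.0, per the submitters' processing notes, forced an equal number of barcodes per library and removed cells below 1750 genes and genes found in fewer than 3 cells. The 3′ kit marks strand. The deposited table holds natural log values, ln(1 + UMIs per 10000 UMIs of the cell), for 19165 genes and 16235 cells, more cells than the study's text gives after its filter. Whole UMIs were recovered by scaling each cell: 0 of 48197283 values above 0 missed a whole number by more than 0.001.

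Each library was clustered alone (Python 3.11.15, scanpy 1.11.5, leidenalg 0.10.2; 2000 variable genes without the 9 genes and 7 companion lists, 30 principal components, 15 neighbours, Leiden resolution 2). Clusters with macrophage markers were split again at resolution 1. A cluster was named from 21 marker lists when at least 3 markers stood at least 1 log2 unit above the 25th percentile of clusters and the mean score was at least 1. Clusters with a second lineage scoring at least 1.5 and 60% of the first stayed unnamed, except that erythroid scores were not counted unless at least 3 erythroid genes were among the 10 leading genes, and never as the second lineage, and that related classes, such as the mesenchymal ones with adipocytes, counted as 1 lineage. These thresholds were set after the clusters were seen. A rebuilt name may differ from the study's. Neural-like cells at E13.5 with leading genes of another class were left out of stage comparisons, as were the dermal-like clusters given in the report. Doublets were kept: Scrublet, at an expected 6%, marked 0 cells at E13.5 and so did not work there, and marked 84 (1.61%) at E16.5, of which 7 were macrophage-like, and 106 (2.09%) at P0, of which 0 were.

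Sums of UMIs per class gave CPM, with exact Poisson and binomial 95% intervals (scipy 1.17.1, numpy 2.4.6, matplotlib 3.10.9). No test was run, since each stage is 1 library. A difference was called past 2-fold after adding 10 CPM, and its background is the share of genes with at least 50 UMIs in both groups together that passed. The floor for 0 counts is 3 counts per class. All 9 genes are named, as are the 2 highest genes of each companion list in macrophage-like cells and those past 2-fold there, and the 5 genes most correlated with Csf1, Il34 and Csf1r among genes with at least 100 UMIs. The 9 genes, the marker lists and the companion lists were chosen with earlier results of these data known. The counting steps were tested on simulated data. Alternatives were other resolutions, variable genes, gene minimums, weights, doublets, a per-cell gate of 4 macrophage markers, pseudocounts, thinning and UMI minimums. Some genes of the companion lists are not reported here.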

Additional observations from a re-analysis of the deposited data

Results flagged for a closer look

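Cells of clusters that no class named entered no comparison, and several of the 9 genes stood in them at 2 times or more the level of the named cells that were not macrophage-like. At E13.5 these were 480 cells in 17 clusters, most with markers of more than 1 lineage. They held Il34 at 2.04 CPM against 0.86, Csf1r at 40.1 against 4.24, C1qa at 92.2 against 9.71, C1qb at 141.9 against 15.1, C1qc at 114.3 against 11.6, Pf4 at 189.9 against 28.7, Mrc1 at 53.5 against 5.73 and F13a1 at 63.7 against 5.599. Of the 7 Il34 UMIs, 4 lay in 1 cluster of 9 cells, where the level was 51.3 CPM, and 14 of the 17 clusters held 0. Unnamed clusters of 42, 37 and 28 cells had 12 or 13 of the 14 macrophage markers raised. Each of them also had some of the 7 macrophage genes among its 10 leading genes.

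At P0 the 114 unnamed cells held Csf1r at 11.3 CPM against 0.74, C1qa at 50.3 against 2.38, C1qb at 94.4 against 4.21, C1qc at 65.5 against 2.67, Pf4 at 157.3 against 11.6, Mrc1 at 2.52 against 0.807 and F13a1 at 8.18 against 0.695. A cluster of 14 of these cells scored for lymphoid, macrophage and epithelial markers together. The source of the transcripts in unnamed cells was not tested.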

How the results depend on the processing

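Direction and side of the 2-fold size held for 116 of 124 recomputed stage differences. Of 54 gene counts 38 stayed within 1.5 times, of 251 levels 158 stayed within counting error, and of 10 shares 9 moved without thinning. Restricting to cells with at least 2500 genes moved Csf1 in dermal-like cells at P0 from 28.1 to 20.02 CPM, Il34 in pericyte-like cells at P0 from 245 to 190.2 CPM, and Csf1r in macrophage-like cells to 532 CPM at E13.5 and 256 CPM at P0. Equal weight per cell gave Il34 74.5 CPM in pericyte-like cells at E16.5 and Csf1r 381 CPM at E13.5. Csf1r was 335, 566 and 361 CPM under the per-cell marker gate, 467 CPM at E13.5 with the 9 genes among the variable genes, 506, 811 and 818 CPM without the sub-clusters led by Cd74, Plac8 or Ccr2, and 523 and 680.4 CPM at E13.5 and E16.5 for marker scores of at least 4. Without thinning, shares were 7.44%, 15.6% and 13.9% (Csf1, dermal-like), 44.4% and 73.8% (Il34, pericyte-like), 10.5% and 56.6% (Il34, suprabasal-like), and 76.4% and 92.6% (Csf1r, macrophage-like, E13.5 and E16.5). Genes past 2-fold in macrophage-like cells at E16.5 numbered 368, but 157 with at least 200 UMIs, 633 with 1 CPM added and 215 for scores of at least 4. At P0 they numbered 592, but 950 with no filter, 136 with at least 200 UMIs, 905 with 1 CPM added and 222 after thinning. With 1 CPM added the dermal-like counts were 1545 and 2084 for 479 and 619, and the pericyte-like count was 1099 for 581, or 260 with at least 200 UMIs. Signs reversed for Csf1r from E16.5 to P0 (0.012 without the led sub-clusters), Csf1 in pericyte-like cells (-0.036 after thinning) and Il34 in epithelial-like cells from E13.5 to E16.5 (-0.044 at resolution 3). Beyond what each setting changes by construction, the cause was not tested. No paired analysis was possible because each stage is 1 library. The P0 macrophage-like values rest on 51 cells. The sub-cluster and score settings were chosen after seeing the data.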

Other observations

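An unnamed cluster of 9 cells at E13.5, led by Vtn, Cldn11, Slc6a13 and Ptgds, held the highest level of Csf1 of any cluster of that stage at 102.6 CPM (8 UMIs, interval 44.3 to 202). It also held Il34 at 51.3 CPM (4 UMIs, 13.97 to 131). It was singled out after its values were seen, and 8 and 4 UMIs leave both levels loosely placed.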
